A study of Mus musculus with 4 samples.

Results

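The STAT family of transcription factors is described here through 6 of its genes, Stat2, Stat3, Stat4, Stat5a, Stat5b and Stat6, taken by symbol from a deposited table of 54532 mouse genes. Total RNA had been sequenced from cultured bone marrow cells that the labels call MSCs, isolated from digested, unfractionated marrow of CB6F1 mice, an F1 hybrid laboratory strain. For the 2 R libraries the cells had received a compound named only R at 0.5 µM (the labels write "um"), and for the 2 vehicle libraries its solvent, DMSO. The term aGVHD stands in the titles of both groups, and the labels give neither the age of the mice nor whether replicates were separate animals or separate cultures. The p-values therefore reflect only how far these samples spread, which may be technical.

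STAT proteins wait in the cytoplasm and carry signals from cytokine receptors to the nucleus. A cytokine brings receptor chains and their bound JAK kinases together, the kinases phosphorylate a tyrosine near the end of the STAT protein, and the phosphorylated STATs pair up, enter the nucleus and bind DNA. Activation is thus a change of the protein, and the RNA level measured here tells how much transcript of each STAT was present, not how much of it was phosphorylated. STAT2 acts mainly with IRF9 downstream of type I interferon receptors and binds interferon-stimulated response elements, and both genes are known to be interferon-stimulated themselves. STAT3 serves interleukin 6 and interleukin 10 type cytokines, STAT4 interleukin 12, STAT5A and STAT5B growth hormone, prolactin and granulocyte-macrophage colony-stimulating factor, and STAT6 interleukins 4 and 13.

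Values were FPKM, reads scaled to gene length and library size, so that levels of different genes can be set side by side. The libraries held 16534440 to 18085183 recovered reads, and all 6 STAT genes were detected in every library. Macrophage transcripts were abundant beside stromal ones. The summed levels of 14 macrophage markers were 15300 and 11780 FPKM in R libraries and 22550 and 20170 FPKM in vehicle libraries. Lyz2 alone was the largest part of these sums, at 8891 and 7061 FPKM in R libraries and 14569 and 12540 FPKM in vehicle libraries. The sums of 10 mesenchymal stromal markers were 1445 and 1460 FPKM in R libraries and 1157 and 1132 FPKM in vehicle libraries. Of 10 markers of T and NK cells, 7 were at 0 in all 4 libraries, Cd3e among them. Cd4 had 6.35 and 6.57 FPKM in R libraries and 8.14 and 8.13 FPKM in vehicle libraries. Lck and Zap70 of that list, and Lepr and Thy1 of the stromal list, stayed below 1 FPKM. In bulk RNA, fewer cells of a type and less RNA per cell cannot be told apart.

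Stat6 was the most abundant STAT transcript. It had 39.8 and 43.9 FPKM in R libraries and 43.96 and 46.3 FPKM in vehicle libraries, a level above that of 95.2% of the genes detected. Stat3 came next in both groups, and Stat4, at or below 1.04 FPKM, came last. The order between them differed by group. In R libraries it ran Stat5b, Stat5a, Stat2, and in vehicle libraries Stat2, Stat5b, Stat5a, so that Stat2 had rank 5 in R and rank 3 in vehicle. The ranges of neighbours in these orders did not overlap within a group, although with 2 libraries a group this is a narrow measure of spread, and in vehicle Stat2 at 12.1 to 13.3 FPKM lay close to Stat5b at 11.7 to 11.8 FPKM. Added up, the 6 genes reached 75.7 and 83.8 FPKM in R libraries and 99.6 and 100.3 FPKM in vehicle libraries. All genes together summed to 333130 and 287360 FPKM in R libraries and 345709 and 333425 FPKM in vehicle libraries. The family sum was not rescaled to these totals, so its gap is stated for the FPKM scale only.

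**Figure D1:**
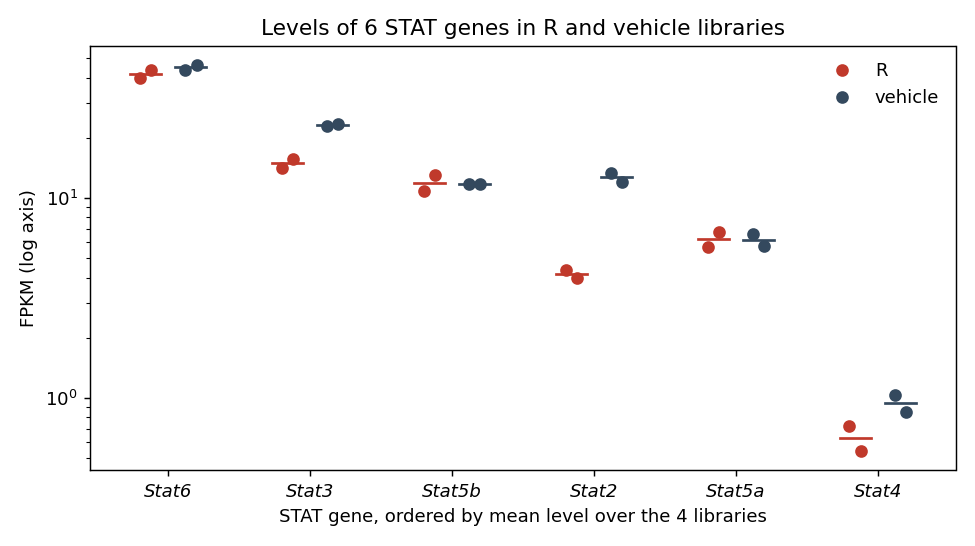
FPKM of each STAT gene (log axis) in the 2 R and 2 vehicle libraries, one point per library, with a line at the mean of each group. Stat2 sits at 3.96 and 4.38 FPKM in R against 12.1 and 13.3 FPKM in vehicle, while the points of Stat5a and Stat5b overlap between groups.

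Cells treated with R were set against solvent-treated cells to ask how their transcripts differ. Among the STAT genes, Stat2 fell in R, Stat3 was lower without passing the test, and Stat5a, Stat5b and Stat6 differed by less than the spread could resolve. The test was limma on log2(FPKM + 1), with Benjamini-Hochberg adjustment over the 12176 genes that averaged 1 FPKM or more and a threshold at an adjusted p of 0.05. Of the 6 STAT genes 5 passed this filter, and 1 of these 5 was called lower and 0 were called higher. Over all genes tested, 1.37% were called lower and 0.345% higher, 167 and 42 genes, while rescaling each library to TPM gave 124 lower and 58 higher and moved the median of all log2 fold changes to 0.13. Leaving out 1 library gave 193 to 665 lower and 96 to 438 higher, and without R replicate 2 the lower calls no longer outnumbered the higher ones (410 lower, 438 higher). Both R libraries lay below both vehicle libraries in 3 of the 5 tested STAT genes, a pattern found in 25.2% of all genes tested.

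Stat2 (ENSMUSG00000040033; chr10:128270559-128292849, plus strand, GRCm38) had 4.38 and 3.96 FPKM in R replicates 1 and 2, against 13.3 and 12.1 FPKM in vehicle replicates 1 and 2. The groups did not overlap, and even the lower vehicle library stood well above the higher R library. The means were 4.17 ± 0.294 FPKM across R libraries and 12.7 ± 0.857 FPKM across vehicle libraries (SD, n = 2 per group), a 3.04-fold lower mean in R. Behind these values were 501 and 425 reads in R and 1390 and 1285 reads in vehicle, and the 95% Poisson intervals of 458.1 to 546.9 for the larger R count and 1216 to 1357 for the smaller vehicle count cover counting error only. Stat2 fell by 1.40 on the log2(FPKM + 1) scale (SE 0.124, 95% interval -1.71 to -1.10; adjusted p = 0.00763, limma with Benjamini-Hochberg). Leaving out any 1 library kept the call, with log2 fold changes from -1.47 to -1.34. Without a filter on low values the adjusted p was 0.0984 in limma, in a fit that called 0 of 24958 genes.

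The promoter of Stat2 is shown because the gene is known to be interferon-stimulated and its protein binds elements of this kind. The window from 250 bases before to 50 bases after the RefSeq start (chr10:128270248-128270547, plus strand, GRCm38.p6) was searched on both strands for 2 motifs, an interferon-stimulated response element type GAAANNGAAA and a gamma-activated site type TTCNNNGAA. The motifs can share bases, since each GAAA holds GAA, but no window of a STAT gene held both. The window of Stat2 held 1 response element, on the minus strand, whose first base in the printed strand lies 222 bases before the start. Capitals mark it.

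Stat2: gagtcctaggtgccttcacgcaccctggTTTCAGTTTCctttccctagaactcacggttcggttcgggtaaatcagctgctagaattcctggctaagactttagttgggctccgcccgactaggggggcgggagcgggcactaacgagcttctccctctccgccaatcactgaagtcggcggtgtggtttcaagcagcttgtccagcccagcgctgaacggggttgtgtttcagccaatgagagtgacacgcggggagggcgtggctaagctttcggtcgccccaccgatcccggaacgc

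RefSeq listed 9 such windows for the 6 genes, 2 each for Stat4, Stat5a and Stat5b. The other response element lay in the second window of Stat4 (chr1:52007990-52008289, plus strand), 97 bases before that start, on the plus strand. It is shown beside the window of Stat3 (chr11:100939491-100939790, minus strand), the next most changed member, which held neither motif.

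Stat4: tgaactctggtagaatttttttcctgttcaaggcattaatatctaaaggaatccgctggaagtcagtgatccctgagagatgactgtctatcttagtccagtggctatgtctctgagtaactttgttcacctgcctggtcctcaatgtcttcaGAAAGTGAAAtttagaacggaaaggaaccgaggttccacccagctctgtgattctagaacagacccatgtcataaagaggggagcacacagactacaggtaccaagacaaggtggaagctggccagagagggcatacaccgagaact
Stat3: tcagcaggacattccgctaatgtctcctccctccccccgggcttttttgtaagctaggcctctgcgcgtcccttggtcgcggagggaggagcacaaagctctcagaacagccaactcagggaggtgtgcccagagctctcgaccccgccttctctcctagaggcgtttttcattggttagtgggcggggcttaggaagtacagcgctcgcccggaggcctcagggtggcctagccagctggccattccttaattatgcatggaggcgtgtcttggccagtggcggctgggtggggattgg

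Read on the strand that begins with GAAA, the element of Stat2 is GAAACTGAAA and that of Stat4 is GAAAGTGAAA. Of 32851 mouse windows of this length, 3.44% held the response element motif and 8.3% the gamma-activated site motif. The windows of Stat3, Stat5a, Stat5b and Stat6 and the first window of Stat4 held neither, which says only that these letters are not in those windows. A match describes the sequence and does not show that a factor binds there.

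Stat3 (ENSMUSG00000004040; chr11:100885098-100939540, minus strand) had 14.2 and 15.6 FPKM in R libraries, against 22.95 and 23.6 FPKM in vehicle libraries. Both R values were below both vehicle values, and the vehicle libraries lay close together. The means were 14.9 ± 0.996 FPKM across R libraries and 23.3 ± 0.466 FPKM across vehicle libraries (SD, n = 2 per group), a mean 35.9% lower in R. The log2 fold change was -0.61 (SE 0.120, 95% interval -0.91 to -0.31) and missed the threshold (adjusted p = 0.0794, unadjusted p = 0.00243, limma with Benjamini-Hochberg). It passed in 5 of 13 alternatives, among them voom on recovered reads (adjusted p = 0.0483, limma with Benjamini-Hochberg). The log2 fold change was -0.55 and -0.67 without R replicate 1 or 2, where it passed. It was -0.63 and -0.59 without vehicle replicate 1 or 2, where it did not. The median SE over all genes tested was 0.12 without an R library and 0.282 without a vehicle library, beside 0.148 with none left out.

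Stat6 (ENSMUSG00000002147; chr10:127642986-127660957, plus strand), with the values given above, averaged 41.9 ± 2.90 FPKM across R libraries and 45.1 ± 1.62 FPKM across vehicle libraries (SD, n = 2 per group). The higher R library, at 43.94 FPKM, and the lower vehicle library, at 43.96 FPKM, were nearly equal. The log2 fold change was -0.11, with a 95% interval from -0.42 to 0.21 (adjusted p = 0.742, limma with Benjamini-Hochberg), and it was 0.03 on the TPM scale.

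Stat5a (ENSMUSG00000004043; chr11:100859351-100885169, plus strand) had 5.72 and 6.73 FPKM in R libraries and 6.63 and 5.77 FPKM in vehicle libraries. Stat5b (ENSMUSG00000020919; chr11:100780731-100850724, minus strand) had 10.8 and 13.0 FPKM in R libraries and 11.7 and 11.8 FPKM in vehicle libraries. In both genes the groups overlapped. Their log2 fold changes were 0.01 and 0.02, with 95% intervals from -0.34 to 0.35 and from -0.31 to 0.35 (adjusted p = 0.988 and adjusted p = 0.967, limma with Benjamini-Hochberg). The intervals leave room for changes of that size in either direction, and the signs flipped to -0.10 and -0.11 without R replicate 2, and that of Stat5a to -0.08 without vehicle replicate 2.

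Stat4 (ENSMUSG00000062939; chr1:51987148-52107189, plus strand), known mainly from T and NK cells and also from myeloid cells, had 0.723 and 0.542 FPKM in R libraries, against 1.04 and 0.849 FPKM in vehicle libraries. Its mean over the 4 libraries was below the filter, so it was not tested in the fit above. The values rested on 54 and 38 reads in R and 71 and 59 reads in vehicle. Both R values lay below both vehicle values. The 95% Poisson intervals of the reads did not overlap between R replicate 2 (26.89 to 52.16) and vehicle replicate 1 (55.45 to 89.56). In every other pair of an R and a vehicle library they did, with 40.57 to 70.46 in R replicate 1 and 44.91 to 76.11 in vehicle replicate 2. These reads were not scaled to library size. With no filter on low values the log2 fold change was -0.25 (adjusted p = 0.588, limma with Benjamini-Hochberg).

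Stat4 lies apart on chromosome 1. Stat5b and Stat5a are neighbours on chromosome 11 with 8626 bases between them, and the ends of Stat5a and Stat3, which lie on opposite strands, share 72 exonic bases. Stat6 and Stat2 are 610 kb apart on chromosome 10. Whether counting used strand is not stated, so reads from that overlap cannot be assigned to either gene. Stat5a and Stat5b are close paralogues: 8.21% of the 50-base stretches of Stat5a transcripts also occurred in Stat5b transcripts, and 11% the other way, so reads could be split between them. No other pair shared a 50-base stretch on the same strand. The ratio of Stat5b to Stat5a in FPKM was 1.89 and 1.94 in R libraries and 1.77 and 2.04 in vehicle libraries, which overlapped.

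The shares of the family sum also differed between groups. Stat2 made up 5.79% and 4.73% of the summed FPKM of the 6 genes in R libraries, against 13.4% and 12.1% in vehicle libraries. Stat6 made up 52.6% and 52.4% in R libraries, against 44.1% and 46.1% in vehicle libraries. Stat6 itself was not higher in R (log2 fold change -0.11), and its larger share follows from the smaller sum. Such shares restate the levels given above and are no further result. The ratio of Stat2 to Stat3 was 0.308 and 0.254 in R libraries, against 0.579 and 0.512 in vehicle libraries. That ratio did not overlap between groups. A two-sided exact permutation test of it gave p = 0.333, the smallest value that 2 libraries against 2 can give. Any ratio without overlap gives this value, so the test cannot decide whether the ratio differs.

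Irf9, which encodes the DNA-binding partner of STAT2, had 3.31 and 3.02 FPKM in R libraries, against 12.1 and 10.3 FPKM in vehicle libraries. It fell by 1.55 on that log2 scale, with an SE of 0.134 (adjusted p = 0.0075, limma with Benjamini-Hochberg). Irf9 and Stat2 lay at similar levels in each library, with an Irf9 to Stat2 ratio of 0.755 and 0.761 in R libraries and 0.912 and 0.855 in vehicle libraries. Of 11 tested STAT cofactors and nuclear carriers, 2 fell, Irf9 and Nmi, and 0 rose, beside 1.37% of all genes tested called lower. Nmi, an interferon-inducible protein that binds STATs, had 3.19 and 2.71 FPKM in R libraries, against 7.79 and 6.63 FPKM in vehicle libraries (adjusted p = 0.0296, limma with Benjamini-Hochberg). The median log2 fold change of this list was -0.05, beside 0 over all genes tested.

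Of the 4 JAK kinases, which phosphorylate STATs, 1 fell and 0 rose, beside 1.37% of all genes tested called lower. Jak3, the kinase that binds the common gamma chain in blood cells, had 5.36 and 4.44 FPKM in R libraries, against 10.6 and 10.3 FPKM in vehicle libraries. It fell by 0.96 on that log2 scale, with an SE of 0.132 (adjusted p = 0.0325, limma with Benjamini-Hochberg). Jak1 and Tyk2, the kinases of type I interferon receptors, had overlapping groups, at 45.1 ± 6.83 and 10.8 ± 1.39 FPKM across R libraries and 47.1 ± 2.20 and 10.5 ± 0.647 FPKM across vehicle libraries (SD, n = 2 per group). Jak2, used by growth hormone and interferon gamma receptors, averaged 7.62 ± 1.03 FPKM across R libraries and 9.27 ± 0.947 FPKM across vehicle libraries (SD, n = 2 per group), a difference that missed the threshold (adjusted p = 0.465, limma with Benjamini-Hochberg).

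**Figure D2:**
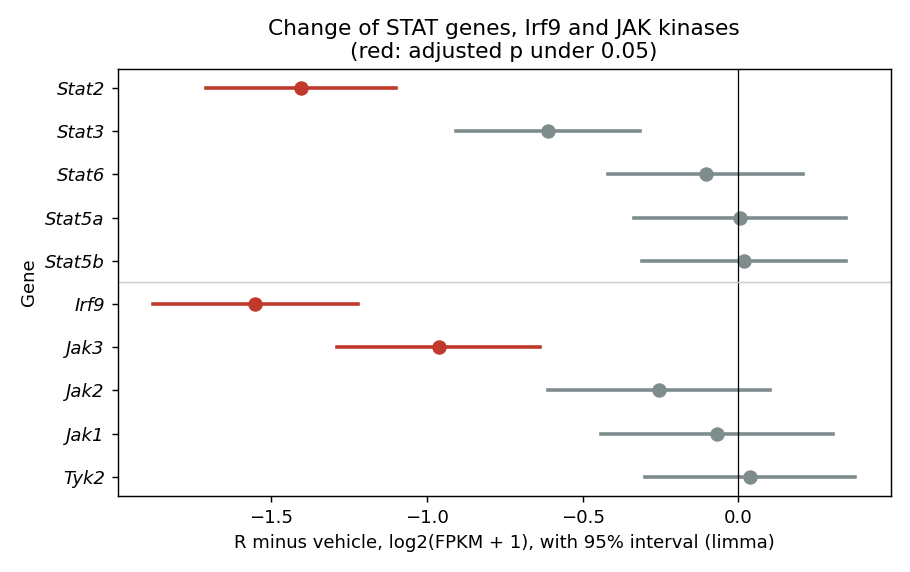
R minus vehicle on the log2(FPKM + 1) scale with 95% intervals from limma, for 5 STAT genes above a separating line and Irf9 and the 4 JAK kinases under it. Stat2, Irf9 and Jak3, in red, passed an adjusted p of 0.05, and the interval of Stat3 runs from -0.91 to -0.31.

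Receptors were read by the STATs they use. Of 6 tested receptors of the interferon and interleukin 10 families 0 were called, with 4 at an unadjusted p under 0.05 in limma, beside 1947 of the 12176 genes tested, or 16%. The smallest p was that of Il10rb, a shared chain of interleukin 10 type receptors, at 26.5 and 23.9 FPKM in R libraries and 37.4 and 36.7 FPKM in vehicle libraries (adjusted p = 0.112, limma with Benjamini-Hochberg). It did not pass with voom (adjusted p = 0.0794) and did without R replicate 1 or R replicate 2 (adjusted p = 0.0295 and adjusted p = 0.0481), but not without vehicle replicate 1 or 2 (adjusted p = 0.88 and adjusted p = 0.659). Of 6 tested receptors of the gp130 family, which signal mainly through STAT3, 2 fell and 0 rose, beside 1.37% of all genes tested called lower. Osmr, the oncostatin M receptor, had 2.70 and 3.27 FPKM in R libraries, against 6.85 and 7.78 FPKM in vehicle libraries (adjusted p = 0.0281, limma with Benjamini-Hochberg). Csf3r, the granulocyte colony-stimulating factor receptor of myeloid cells, had 11.2 and 10.6 FPKM in R libraries, against 19.7 and 18.4 FPKM in vehicle libraries (adjusted p = 0.0479, limma with Benjamini-Hochberg). The call of Csf3r was lost without vehicle replicate 1 or 2 (adjusted p = 0.317 and adjusted p = 0.13), and both calls were lost on the TPM scale (adjusted p = 0.0842 for Osmr and adjusted p = 0.0863 for Csf3r).

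Of 6 tested receptors of the common gamma chain and interleukin 4 group, 1 fell, beside 1.37% of all genes tested, and 0 rose. This was Il4ra, the chain through which interleukins 4 and 13 activate STAT6, with 35.5 and 33.5 FPKM in R libraries, against 69.8 and 68.3 FPKM in vehicle libraries (adjusted p = 0.0227, limma with Benjamini-Hochberg). Of 6 tested receptors of the beta common and hormone group, which use STAT5, 1 fell, beside 1.37% of all genes tested, and 0 rose. This was Csf2rb, the shared beta chain, with 9.50 and 9.47 FPKM in R libraries, against 16.2 and 17.5 FPKM in vehicle libraries (adjusted p = 0.0457, limma with Benjamini-Hochberg). Reads of Csf2rb could be split with its close copy Csf2rb2, which was not called (log2 fold change -0.89, adjusted p = 0.0569, limma with Benjamini-Hochberg). Without vehicle replicate 1 or 2 neither passed, with adjusted p = 0.106 and adjusted p = 0.0597 for Il4ra and adjusted p = 0.139 and adjusted p = 0.225 for Csf2rb. The call of Csf2rb was also lost on the TPM scale (adjusted p = 0.103). The 3 interleukin 12 and 23 receptor genes, upstream of STAT4, summed to 0.452 and 0.415 FPKM in R libraries and 0.363 and 0.319 FPKM in vehicle libraries and were not tested.

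Of 22 listed cytokine genes 15 were above 0 in some library and 9 were tested, while 7, Ifnb1 and Ifng among them, were listed at 0 in all 4 libraries. By limma 0 of the 9 were called, and 6 had an unadjusted p under 0.05, beside 16% of all genes tested. Among these 6, Clcf1 was higher in R (log2 fold change 0.58) and the others were lower. The smallest p was that of Il10, an activator of STAT3, at 13.0 and 11.01 FPKM in R libraries and 23.9 and 21.2 FPKM in vehicle libraries (adjusted p = 0.0516, limma with Benjamini-Hochberg). Il10 passed in 8 of 13 alternatives, voom among them (adjusted p = 0.0343), with adjusted p = 0.0211, adjusted p = 0.033 and adjusted p = 0.0393 without R replicate 1, R replicate 2 and vehicle replicate 2, but not without vehicle replicate 1 (adjusted p = 0.203).

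Known targets of the STATs differed in how many were called. The lists were chosen with earlier results of these data known, so their directions are not independent evidence. Of 21 tested type I interferon targets, genes that the STAT2 complex drives, 19 fell and 0 rose, beside 1.37% lower over all genes. Their median log2 fold change was -1.92, beside 0 over all genes. Oas2 and Oasl2, of the oligoadenylate synthetase family, and Ifit1, which binds viral RNA, had the smallest p. Oas2 had 0.303 and 0.348 FPKM in R libraries, against 14.7 and 15.01 FPKM in vehicle libraries (adjusted p = 0.000906, limma with Benjamini-Hochberg). Where an average of 5 FPKM or more was required, 13 of the targets were left to test and 12 of them were called, and without any filter 0 were called.

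Of 16 tested STAT3 targets 4 fell and 0 rose, beside 1.37% of all genes tested called lower. The median of the list was -0.19. Saa3, an acute phase protein, had 0.577 and 0.509 FPKM in R libraries, against 4.07 and 2.87 FPKM in vehicle libraries (adjusted p = 0.0196, limma with Benjamini-Hochberg). Bcl3, a nuclear cofactor of NF-kB, had 5.28 and 4.69 FPKM in R libraries, against 10.6 and 10.7 FPKM in vehicle libraries (adjusted p = 0.0231, limma with Benjamini-Hochberg). Pim1, a kinase that promotes survival, had 15.7 and 15.1 FPKM in R libraries, against 29.3 and 29.7 FPKM in vehicle libraries (adjusted p = 0.0253, limma with Benjamini-Hochberg). The call of Pim1 was lost without vehicle replicate 1 or 2 and on the TPM scale (adjusted p = 0.0905, adjusted p = 0.0758 and adjusted p = 0.0548). The other gene that fell was Osmr, described above.

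Of 8 tested STAT5 targets 1 fell, Pim1 again, and 0 rose, beside 1.37% of all genes tested called lower. Of 17 listed STAT6 targets 8 were tested, of which 1 fell, Il4ra again, and 0 rose, while 4 listed ones were at 0 in all 4 libraries. An unadjusted p under 0.05 in limma was found for 6 STAT5 and 2 STAT6 targets, beside 16% of all genes tested. Among those 6, Ccnd2 was higher in R (log2 fold change 0.59) and the others were lower. The median log2 fold changes were -0.47 over the tested STAT5 targets and 0.15 over the tested STAT6 targets only. Of 7 listed STAT4 targets 2 were tested and 0 called, with 0 at an unadjusted p under 0.05. Hlx, with the smaller p, averaged 26.4 ± 5.93 FPKM across R libraries and 33.5 ± 3.25 FPKM across vehicle libraries (SD, n = 2 per group). Of 20 tested feedback inhibitors 1 fell, beside 1.37% of all genes tested, and 0 rose. This was Usp18, which removes ISG15 and blocks the type I interferon receptor, at 0.390 and 0.436 FPKM in R libraries, against 5.12 and 5.09 FPKM in vehicle libraries (adjusted p = 0.00293, limma with Benjamini-Hochberg). Usp18 is also one of the type I interferon targets counted above. Of the 20 feedback inhibitors, 9 had an unadjusted p under 0.05 in limma, beside 16% of all genes tested. Among these 9, Ptpn11 was higher in R (log2 fold change 0.41) and the others were lower.

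**Figure D3:**
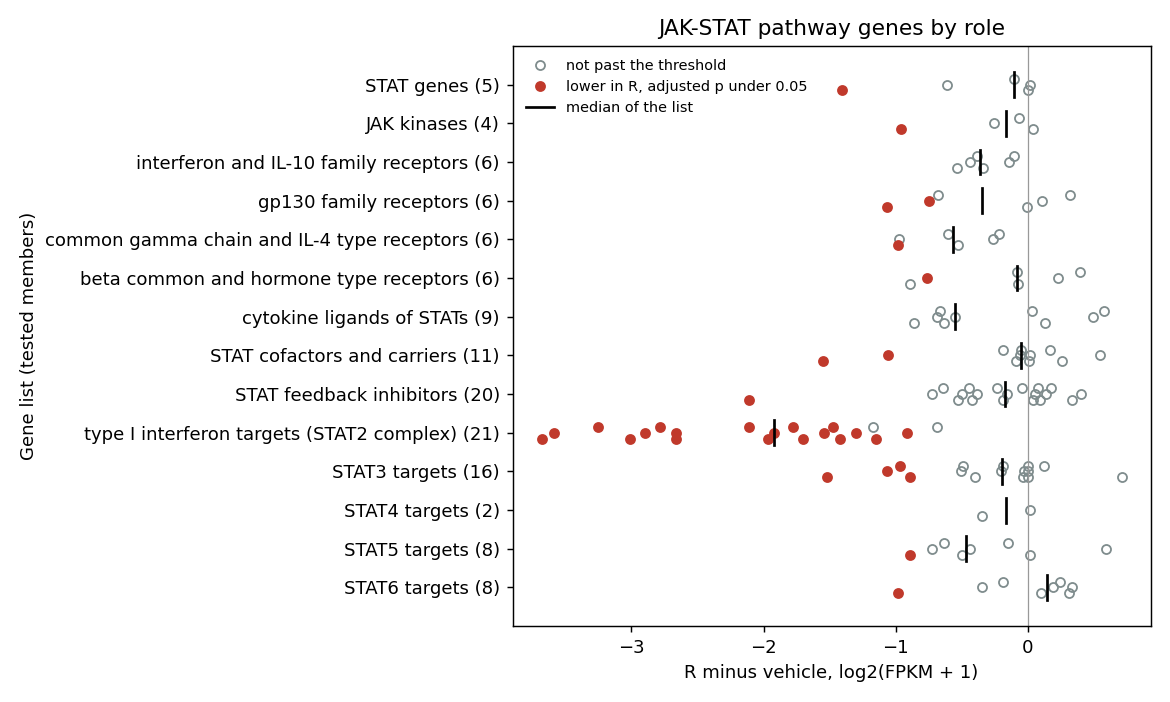
R minus vehicle on the log2(FPKM + 1) scale for each tested gene, grouped by role in JAK-STAT signalling, with a bar at the median of each list and red points for genes called lower in R. The 21 type I interferon targets spread around a median of -1.92, and the medians of the other lists lie between -0.57 and 0.15.

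The genes whose profiles over the 4 libraries lay nearest to that of Stat2 were Epsti1, Ms4a6d, Lgals3bp, Ccl6 and Ctss, by Euclidean distance of centred log2(FPKM + 1) values among 7092 protein-coding genes. Their distances were 0.0929 to 0.137. Epsti1 had 6.23 and 6.03 FPKM in R libraries, against 17.6 and 17.1 FPKM in vehicle libraries. That all 5 were called lower, as Stat2 was, follows from choosing them by likeness to it. Nearest to Stat3 were Atp6v0c, Gas7, Lcp2, Hpse and Ehd4, at distances of 0.0483 to 0.0672, of which 0 were called. Nearest to Stat6, whose values differed little, were Pramef8, Snrpe, Pacs2, Usp7 and Ppp4r2. With 4 libraries such likeness describes these samples only.

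Of 14 tested macrophage markers 3 were called lower, Fcgr1, Ctss and Itgam, beside 1.37% of all genes tested. All 14 had negative log2 fold changes, beside 6087 of the 12176 genes tested, with a median of -0.64 and a range from -1.90 for Fcgr1 to -0.13 for Adgre1. The 11 that were not called included Lyz2 at -0.77, Cd68 at -0.69 and Csf1r at -0.26, and C1qc and Mrc1 overlapped between groups. Of 8 tested stromal markers 0 were called. Pdgfrb and Col1a1, at 0.60 and 0.64, had an unadjusted p under 0.05 in limma, which is 2 of 8 beside 16% of all genes tested. The median of the 8 was 0.139, and 2 were below 0, Pdgfra at -0.16 and Cxcl12 at -0.05. The part of cell composition in the values of Stat2, Stat3, Jak3 and the receptor genes was not tested.

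**Figure D4:**
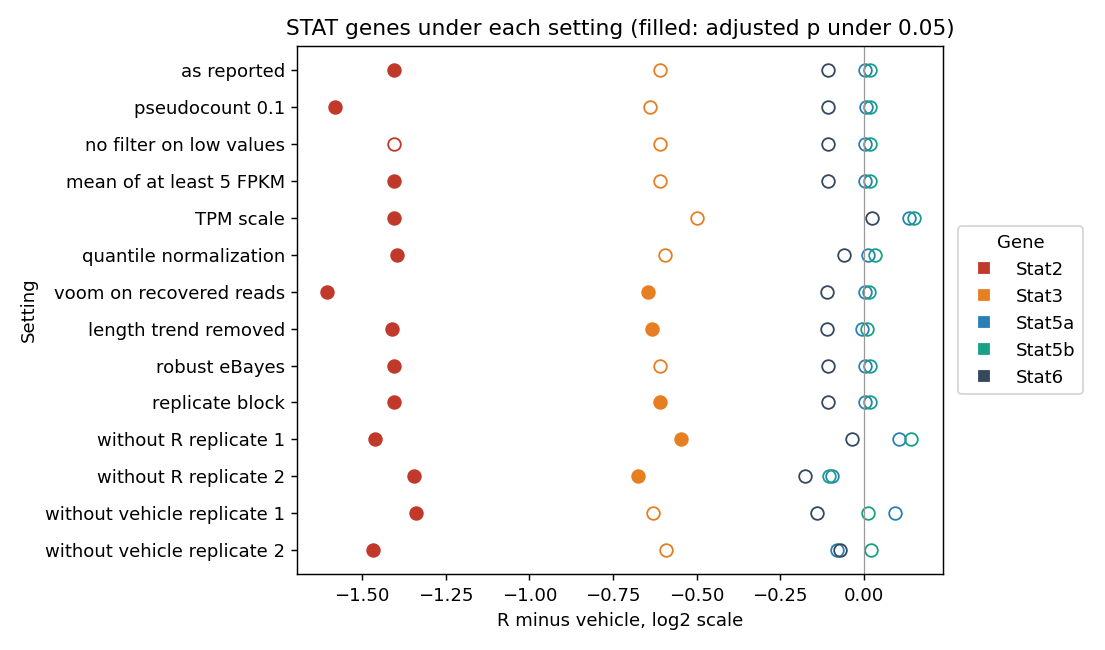
Log2 fold change, R minus vehicle, of 5 STAT genes as reported and under 13 alternatives, with filled points where the adjusted p was under 0.05. Stat2 ranges from -1.61 to -1.34 over the alternatives, Stat3 from -0.67 to -0.50, and Stat5a, Stat5b and Stat6 stay between -0.18 and 0.15.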

How the data were processed

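The deposited table gives 1 FPKM value per gene and library, per the file headers. The builds GRCm38 and mm10 and edgeR 3.18.1 are named per the submitters' processing notes, with no role, and the sources used here name no aligner, counter or annotation. Its 10 unnamed columns hold no value. GENCODE M21 (GRCm38, primary assembly) matched 54495 identifiers and gave symbols, positions and exon lengths, and 37 did not match. FPKM times exon length came out as whole reads, within 0.02, in 96.3 to 96.4% of nonzero values. Implied library sizes were 1.04 to 1.09 times the recovered reads.

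Genes averaging 1 FPKM or more were fitted as log2(FPKM + 1) with limma 3.58.1 (R 4.3.3), R against vehicle, eBayes with a trend, two-sided, with 2 residual and 3.83 prior degrees of freedom. Fold changes on this scale understate changes of low genes. Scripts were tested on simulated data. Promoters are from RefSeq's table (GRCm38.p6). All STAT genes above, the JAK kinases and Irf9 are named, and in each list up to 3 called genes with the smallest p or, with none, the gene with the smallest p. Ifnb1, Ifng, Cd3e, Cd4, Lck, Zap70, Lepr, Thy1, Csf2rb2, Ccnd2, Clcf1, Ptpn11 and the macrophage and stromal markers were named after their values were seen. The STAT genes, lists, tests and alternatives were chosen with earlier results of these data known. One further STAT gene is not reported here.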

Additional observations from a re-analysis of the deposited data

How the results depend on the processing

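Stat2 kept its direction in all 13 alternatives and its call in 12, with log2 fold changes from -1.606 to -1.34. The exception was the fit without a filter on low values (-1.404, adjusted p = 0.0984), in which limma called 0 genes higher, 0 lower and 0 STAT genes, with 2767 at an unadjusted p under 0.05, 24958 genes being adjusted over. Stat3 passed with voom on recovered reads (-0.646), with the gene length trend removed (-0.634), with a replicate block (-0.61, adjusted p = 0.000422) and without either R library, so that 2 STAT genes were called lower there. Over the fits leaving out 1 library Stat3 ran from -0.674 to -0.546, and 1 or 2 STAT genes were called lower. Signs of small values reversed. Stat6 was 0.026 and Jak1 0.063 on the TPM scale, and Stat5a was -0.006 with the length trend removed. Leaving out 1 library, Stat5a ran from -0.096 to 0.106, Stat5b from -0.105 to 0.14, Jak1 from -0.22 to 0.083 and Tyk2 from -0.083 to 0.158. The untested difference of Stat4 was -0.517 with a pseudocount of 0.1. Genes called higher and lower numbered 78 and 232 with voom, 223 and 349 with the length trend removed, and 891 and 1009 with the replicate block. Leaving out 1 library gave 96 to 438 higher and 193 to 665 lower, namely 312 and 665 (R replicate 1 left out), 438 and 410 (R replicate 2), 96 and 193 (vehicle replicate 1) and 150 and 259 (vehicle replicate 2). The causes of these moves were not tested. Libraries of the same number deviated together (r = 0.353 across genes), but 2 pairs do not show that the numbers pair the samples. The block left 1 residual degree of freedom beside 91.3 prior ones, against 3.83 prior ones in the fit as reported. The median SE over all genes tested was 0.282 without a vehicle library and 0.12 without an R library, beside 0.148 as reported. Calls lost or kept in those fits therefore do not compare single genes on an equal footing. For 20 further named genes, 215 of 257 alternative values kept direction and call. The 2 libraries a group, and the 38 to 71 reads of Stat4, limit the precision.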
